A study of Mus musculus with 8 samples.

Results

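Potassium channels are built from pore-forming subunits and from accessory subunits that change their gating or trafficking. The genes described here are the potassium channel subunit genes other than the Kv1, Kv3 and Kv7 pore subunits. They were taken as every gene name in the deposited table that starts with Kcn and a lower-case letter, leaving out Kcna with a digit, Kcnc and Kcnq. The rule found 77 names, of which 60 had at least 1 counted molecule among the 63 ChC and 63 Pv cells with counts. They are 60 of the 16531 gene names with a count. A further 13 names of the Kcna, Kcnc and Kcnq groups with a count were left out by the rule.

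As background, A-type channels of the Kcnd pore subunits open below spike threshold and inactivate quickly, and Kcnip and Dpp proteins assemble with them. Kcnb forms delayed rectifiers, and the Kcns and Kcng products are electrically silent until they join Kcnb subunits. Kcnma1 forms the large-conductance calcium-activated channel, Kcnn the small-conductance ones, Kcnj inward rectifiers, Kcnk leak channels with a pair of pore domains per subunit, and Kcnh the ether-a-go-go and related channels. Kcnab products are cytoplasmic beta subunits, which join mainly Kv1 channels. Fast-spiking interneurons of the cortex are known for narrow spikes and for rapid repolarization by potassium currents.

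The study measured messenger RNA of single chandelier cells (ChC), whose axons end on the initial segments of pyramidal cell axons, and of parvalbumin basket cells (Pv), both from the frontal cortex of mice that the labels call WT. ChC came from Nkx2.1-CreER; Ai14 mice given tamoxifen at embryonic day 17.5, and Pv cells came from Pv-ires-Cre; Ai14 mice. Labeled cells, which express a red fluorescent reporter wherever Cre was active, were picked by hand from dissociated slices, so each group rests on the cells its driver labels. The 63 ChC and 63 Pv cells were processed in 4 library batches per cell type. Batches 1 and 2 came from animal 1 (postnatal day 31), batches 3 and 4 from animal 2 (day 32), batches 5 and 6 from animal 3 (day 29) and batches 7 and 8 from animal 4 (day 35). The labels give all of the animals as female, and give the tamoxifen text for Pv samples too. Cell type, mouse line and flow cell cannot be told apart in this design.

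A varietal tag marks each molecule, so counts are unique molecules (UMI). With the distinct rows of each gene name summed, totals were 499971, 624479, 2742981 and 1236955 UMI for ChC batches 1 to 4, and 432386, 474648, 350896 and 868922 UMI for Pv batches 5 to 8. The median ChC held 37005 UMI (range 1005 to 573067) and the median Pv cell 25698 UMI (range 2204 to 101881). At these depths a count of 0 in a batch allows up to 3 UMI, which is 1.09 CPM (UMI scaled to a batch total of 1000000) in batch 3, the deepest, and 8.55 CPM in batch 7, the shallowest. This limit covers counting error only.

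Pvalb, the gene of the parvalbumin protein, marked the groups as labeled. Its level was 150, 183, 93.3 and 77.0 CPM in the ChC batches and 1569, 738.5, 511 and 1048 CPM in the Pv batches. Nkx2-1, the gene whose promoter drives the ChC line, was 63.4 ± 7.06 CPM in ChC and 45.1 ± 25.8 CPM in Pv (SD, n = 4 batches each). The genes of GABA synthesis and packaging were present in both types. Gad1 was 1081 ± 518 CPM in ChC and 1369 ± 883 CPM in Pv. Gad2 was 600 ± 322 CPM in ChC and 197 ± 189 CPM in Pv. Slc32a1 was 1985 ± 536 CPM in ChC and 2002 ± 899 CPM in Pv (SD, n = 4 batches each).

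The sex label was at odds with some counts. Xist, the transcript of the inactive X chromosome in female cells, had 0 UMI in the 15 cells of Pv batch 6 and between 48 and 2358 UMI in each of the other 7 batches. Kdm5d, a Y-linked gene, was at 56.1 CPM in batch 6, 24.9 CPM in ChC batch 3 and between 0 and 2.41 CPM elsewhere. The other Y-linked genes did not rise in batch 6, where Ddx3y was at 8.98 CPM, against 8.40 to 26.8 CPM elsewhere, and Uty at 11.2 CPM, against 5.404 to 26.5 CPM. Each of the 8 batches, all labeled female, held between 11 and 184 UMI of Y-linked genes, most in batch 3, the deepest. Scaled to depth, their sum was 64.5 CPM in batch 3 and was highest in batch 6, at 76.3 CPM, mostly Kdm5d. Batch 5, given to the same animal, had 129 Xist UMI, with a UMI in 16 of its 16 cells. The animal label of batch 6 is thus uncertain, and with it the sum over animal 3 in the tests by animal. Counts without overlap and fold changes are given with and without batch 6.

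The counts of the potassium channel genes differed more between batches than between cells of a batch. Spread between cells was measured per gene and batch as chi-square per degree of freedom given the cell totals, where 1 is the value of counting error alone. It was computed wherever a batch held 100 UMI or more of the gene. Over 76 pairs of a member and a batch, covering 21 members, the median was 1.02 and 37 pairs lay below 1. Only 3 pairs were above 2, named at the end of the paragraph. Over all genes of that depth, the median in a batch was between 0.991 and 1.25, and 4.22 to 11.8% of them were above 2. Between the 2 batches of an animal, by contrast, the same measure had a median of 35.7, 60.5, 50.8 and 33.7 over the members of animals 1 to 4, and of 45.7, 38.2, 48.3 and 17.6 over all genes. This measure grows with the count per unit, and a batch holds more UMI than a cell. The squared coefficient of variation beyond counting error does not grow in this way; its median was 0.00072 over the 76 pairs between cells and 0.222 over 53 pairs of a member and an animal between batches (0.00225 and 0.281 over all genes). The comparison between batches was added after the values between cells had been seen. Apart from those 3 pairs, these genes did not separate the cells of a batch far beyond counting error. Whether molecules were mixed between the cells of a batch was not tested; with mixing, a value near 1 and the shares of cells with a UMI given below would describe batches and not single cells. The pairs were Kcnip4 in batch 4 (3.83), Kcnip4 in batch 7 (2.30) and Kcnb2 in batch 5 (2.11). In these batches 6.52, 11.8 and 4.22% of all genes of that depth were above 2 as well.

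**Figure D1:**
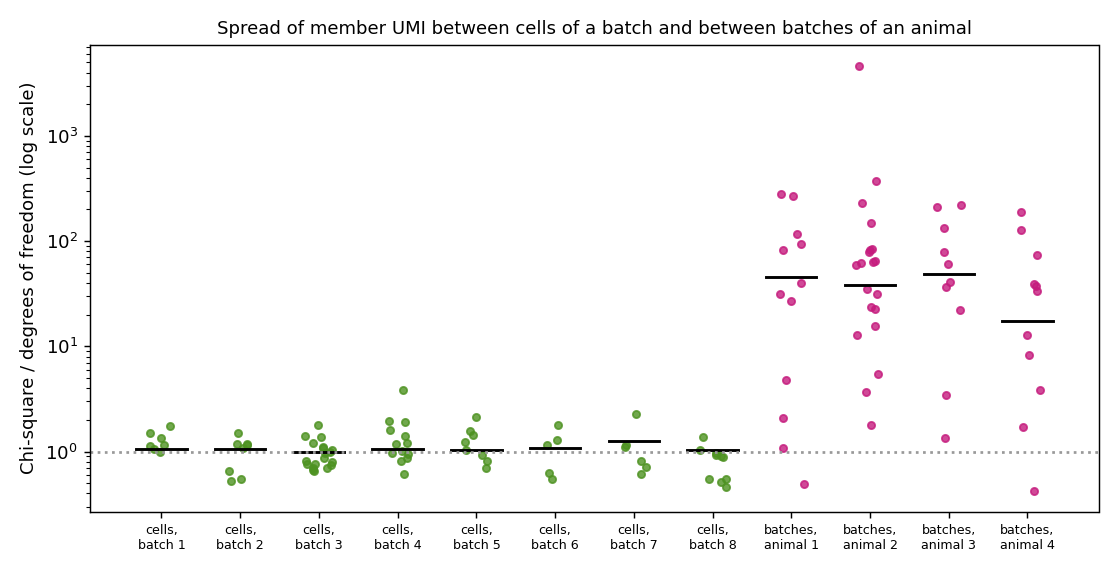
Chi-square per degree of freedom (log scale) of each potassium channel gene with at least 100 UMI, over the cells of each of the 8 batches (green) and between the 2 batches of each of the 4 animals (pink). Each point is a gene, black lines are the median over all genes of that depth and the dotted line marks 1; the medians are between 0.991 and 1.25 over cells and between 17.6 and 48.3 over batches.

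The members held 0.56% of all UMI, counted in the row with the most UMI of each gene. By batch this share was 0.606, 0.390, 0.598 and 0.742% in ChC and 0.431, 0.348, 0.638 and 0.426% in Pv, so the cell types overlapped. Kcnd held 19.4% of the members' UMI, Kcnip 17.8%, Kcnm 15.9%, Kcnh 15.2% and Kcnab 13.2%. Kcnb followed with 5.87%, Kcnj with 5.15%, Kcnt and Kcnu with 2.80%, Kcnk with 2.24%, the silent subunits with 1.89%, Kcnn with 0.539% and Kcnrg with 0.0274%. These shares pool batches of unequal depth, and 3387 of the 5333 UMI of Kcnip4 came from batch 4. Without that batch Kcnip held 10.6%, behind Kcnd (18.5%), Kcnm (18%), Kcnh (16.3%) and Kcnab (16.2%). Without batch 3, Kcnip held the most, 24.1% beside 18% for Kcnd. As the mean over batches, Kcnab held 17.3% (3.19 to 31.2% in a batch), Kcnip 15.9% (4.79 to 42%), Kcnd 15.7% (1.07 to 28.7%), Kcnm 15.5% (8.54 to 26.8%) and Kcnh 13.1% (1.65 to 22.4%), so the order of these 5 depends on how batches are weighed. Thus the A-type channel genes and their Kcnip partners, the large-conductance channel, the Kcnh channels and the beta subunits accounted for most of the molecules, while the 12 inward rectifier and 9 leak channel genes with a count were sparse. The 17 names with no UMI were Kcnd1, Kcne1, Kcne1l, Kcne2, Kcne3, Kcne4, Kcnf1, Kcnj2, Kcnj8, Kcnj14, Kcnk6, Kcnk7, Kcnk9, Kcnk15, Kcnk16, Kcnmb3 and Kcnv1, so that no Kcne name had a count.

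These totals are not levels per length. Judged from nested rows, the deposited table appears to count molecules over the whole genomic span of a transcript, introns included and without strand. For transcript rows of a gene nested in a longer row of the same gene, the inner row was at or below the outer one in every cell for 3073 of 3079 pairs. For nested rows on the opposite strand with more than 20 UMI, this held for 212 of 214 pairs. Over the 60 members the Spearman correlation of UMI with span was 0.639, against 0.240 over all genes with a count; both are across genes, which are not independent replicates. The median span was 48.3 kb for the members and 24.2 kb for all genes with a count. Per kb of span, Kcnab3 held 159 UMI, the inward rectifier gene Kcnj11 held 69.5, Kcnh6 held 54.9 and Kcnt1 held 21.8, whereas Kcnd2 held 12.1, Kcnip4 held 5.95 and Kcnma1 held 2.95.

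**Figure D2:**
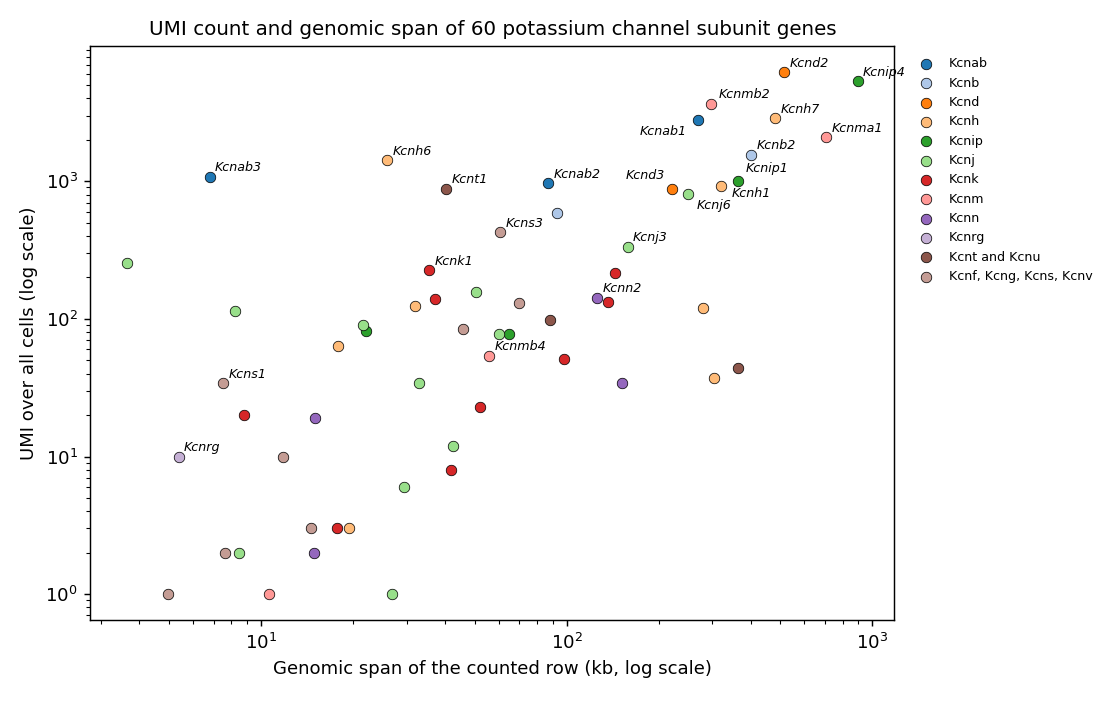
UMI over all cells against genomic span in kb, both on log scales, for the row with the most UMI of each of the 60 potassium channel genes, colored by subfamily, with the genes named in the text labeled. UMI rise with span (Spearman 0.639), and Kcnab3 and Kcnh6 lie above other members of like span.

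Kcnip4, the Kv channel interacting protein gene with the most UMI, shows the nesting. Its 5 rows share the end at chr5:48780742 (mm9, minus strand) and span 93.2, 120, 210.2, 500.1 and 896 kb. They held 191, 259, 540, 1334 and 5333 UMI, rising with each extension. Molecules of such members are counted in more than one row when rows are summed, as the main levels do: the sum over rows was 1.44 times the top row for Kcnip4, 1.87 for Kcnma1, 1.94 for Kcnab2, 1.96 for Kcnip1 and 1.82 for Kcnj6. Of the 60 members, 11 had several distinct rows. Also, 11 overlapped a different gene with UMI (Kcnip1 and Kcnip4 are in both sets), whose molecules cannot be told apart from theirs. The span of Kcnab1 contains A730090N16Rik on the opposite strand, with 755 UMI beside 2778 for Kcnab1. Kcnn2 (142 UMI) overlaps A330093E20Rik (197 UMI), and Kcnrg (10 UMI) overlaps Dleu2 (216 UMI), both on opposite strands, so these are uncertain.

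Each cell was thinned to 10000 UMI to compare detection, which left 48 ChC and 55 Pv cells and left out 15 ChC and 8 Pv cells. The median ChC then held a UMI of 16 members (range 11 to 22) and the median Pv cell of 15 (range 9 to 28). By animal the medians were 14.5 and 16 for the ChC animals and 13.5 and 20 for the Pv animals, so the types overlapped. Without thinning the medians were 23 and 22. In at least 1 cell type, 18 members reached 40% of cells, 31 reached 20% and 40 reached 10%.

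The comparison of ChC with Pv cells asks which channel subunits differ between these interneuron types, and it was tested on UMI summed per animal, 2 animals against 2. Kcnh6 and Kcnd2 were higher in ChC in the fitted values, and Kcnab2, Kcnab3, Kcns1, Kcns3 and Kcnmb4 were higher in Pv, but no member passed the test. After a filter on low counts, 37 of the 60 members were tested; the 23 others held between 1 and 100 UMI. By the quasi-likelihood test of edgeR, adjusted after Benjamini and Hochberg, 0 of 9741 genes (0%) and 0 of 37 members had an adjusted p under 0.05. At an unadjusted p under 0.05 in edgeR there were 623 genes, and DESeq2 called 156 genes and 0 members by its adjusted p.

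At an unadjusted p under 0.05, 2 of 37 members (5.41%) were higher in ChC, against 3.74% of all genes tested, and 5 of 37 (13.5%) were higher in Pv, against 2.66% of all genes. These were Kcnh6 and Kcnd2, and Kcns1, Kcnab2, Kcns3, Kcnmb4 and Kcnab3. In CPM, all ChC batches lay above all Pv batches for 1 of 37 tested members (2.70%), Kcnh6, against 2.63% of all genes, a share near the background. All Pv batches lay above all ChC batches for 4 of 37 (10.8%), Kcnab2, Kcnab3, Kcnmb4 and Kcns3, against 1.62% of all genes. Members that pass the filter through 1 cell type, such as Kcns1 and Kcnmb4, had to differ, so these counts are a description. The median log2 fold change of ChC over Pv was 0.16 over the tested members, also with Kcns1 at its bound, and 0.06 over all genes. By fitted sign, 20 members were higher in ChC and 17 in Pv.

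Leaving out single animals or libraries moved these counts. The counts at an unadjusted p stand beside counts of all genes and are not shares, since Kcns1 was not tested in some of these fits. The 5 members higher in Pv at an unadjusted p under 0.05 (259 of all genes) became 2 without animal 1 (310 genes), 2 without animal 2 (582), 1 without animal 4 (552) and 3 without Pv batch 5 (203), and 4 or 5 in the other cases. The counts of members without overlap between batches also changed. Without batch 6, the batch with no Xist, 1 member lay above in ChC, against 3.73% of all genes, and 6 in Pv, against 3.21%; Kcns1 and Kcnk2 were the additions. Without Pv batch 7, 6 members lay above in ChC, against 5.56% of all genes. Kcnh6, Kcnh7, Kcnd3, Kcnj6 and Kcng3 were among them. Without ChC batch 2, 3 members lay above in ChC and 7 in Pv, against 4.22 and 2.75% of all genes. Without batch 3, 4, 5 or 8, 2 members lay above in ChC each time, against 3.76, 4.30, 3.70 and 4.56% of all genes. Without batch 3 or 4, 5 members lay above in Pv, with Kcnk1 or Kcnip4 added, against 3.05 and 2.77% of all genes.

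Among the beta subunits, Kcnab2 and Kcnab3 were higher in every Pv batch than in any ChC batch. Kcnab2 (chr4:151764849-151851658, mm9) was at 49.9, 33.6, 187 and 136 CPM in the ChC batches and at 564, 659.9, 446 and 461.5 CPM in the Pv batches. The groups did not overlap, and among ChC the batches of animal 2 were higher than those of animal 1. The log2 fold change was -2.31 (SE 0.82), with an adjusted p of 0.673 in edgeR, and -2.32 without batch 6; with any animal or batch left out it was between -3.77 and -1.60. From the row with the most UMI alone, Kcnab2 was at 59.9 ± 45.9 CPM in ChC and 294 ± 54.3 CPM in Pv (SD, n = 4 batches each), again with all Pv batches higher. After thinning, Kcnab2 was detected in 52.1% of ChC (20.0 and 75.0% by animal) and 100% of Pv cells in both animals.

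Kcnab3 (chr11:69139760-69146543, mm9) is the shortest of the beta subunit genes at 6.78 kb. It was at 0, 173, 94.4 and 50.8 CPM in ChC and at 459.8, 272, 190.3 and 277 CPM in Pv. The lowest Pv batch lay little above the highest ChC batch, which shares its animal with the batch at 0. The log2 fold change was -1.75 (SE 0.75, edgeR adjusted p of 0.769), and -2.05 without batch 6; it was -1.27 without ChC batch 1 and -2.83 without ChC batch 2. Kcnab1, the third beta subunit gene, was at 276 ± 176 CPM in ChC and 469 ± 84.5 CPM in Pv (SD, n = 4 batches each), with overlapping batches.

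The silent subunits were sparse, and Kcns3 was higher in every Pv batch than in any ChC batch. Kcns3 (chr12:11097008-11157648, mm9), a partner of Kcnb channels, was at 2.27, 16.8, 22.1 and 17.5 CPM in ChC and 34.1, 123, 202 and 192 CPM in Pv. All Pv batches were higher, and the batches of animal 4 were higher than those of animal 3. The log2 fold change was -3.10 (SE 1.17, edgeR adjusted p of 0.687), and -2.88 without batch 6, where the unadjusted p was 0.0714; with any animal or batch left out it was between -3.72 and -2.36. When each cell weighed the same, in the mean over cells of CPM, the batches of Kcns3 overlapped. After thinning, Kcns3 was detected in 12.5% of ChC (10 and 14.3% by animal) and 67.3% of Pv cells (46.2 and 86.2% by animal). Before thinning, these shares were 50.8% of ChC and 84.1% of Pv cells.

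Kcns1 (chr2:163989355-163996849, mm9) had 0 UMI in all ChC batches and was at 21.9, 0, 43.4 and 7.57 CPM in Pv. Batch 6 was the Pv batch at 0, so the types overlapped there, and they did not overlap without it. The edgeR adjusted p of Kcns1 was 0.603. With the cells of each type pooled, 34 UMI in Pv against a floor of 3 UMI in ChC gave a limit of 27.2-fold lower in ChC. It covers counting error in ChC only and not the spread between batches. This limit was 35.0-fold without batch 6, 12.6-fold without ChC batch 3 and 15.3-fold without Pv batch 7. It was detected in 0 of 63 ChC and 24 of 63 Pv cells before thinning, and after it in 0% of ChC and 20.0% of Pv cells (11.5 and 27.6% by animal). Of the 8 members of the silent group, 4 were tested, and 3 of these had fitted values higher in Pv. The median log2 fold change was -3.19, also with Kcns1 at its bound. Kcns1 passed the filter through Pv alone and could only be higher there, so this tally and median are a description.

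Of the Kcnb pore subunits, with which they assemble, Kcnb2 was at 264.5 ± 153 CPM in ChC and 123 ± 98.9 CPM in Pv (SD, n = 4 batches each), with overlapping batches.

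Of the Kcnh channels, Kcnh6 was higher in every ChC batch than in any Pv batch. Kcnh6 (chr11:105869517-105895378, mm9) encodes a channel of the ERG type. It was at 202, 354, 299.9 and 151 CPM in ChC and 7.30, 62.8, 36.1 and 32.4 CPM in Pv. The groups did not overlap, and the ChC animals were at 289 and 256 CPM against 36.3 and 33 CPM in the Pv animals. The log2 fold change was 2.98 (SE 0.84, edgeR adjusted p of 0.603), and 3.66 without batch 6; with any animal or batch left out it was between 2.50 and 3.66. DESeq2 gave an adjusted p of 0.054, and the adjusted p ranged up to 0.926 over all alternatives. After thinning, Kcnh6 was detected in 85.4% of ChC (90.0 and 82.1% by animal) and 29.1% of Pv cells (23.1 and 34.5% by animal). Before thinning, these shares were 90.5% of ChC and 58.7% of Pv cells.

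Kcnh7, also of the ERG type, was at 640, 329, 530.4 and 361 CPM in ChC and 34.1, 159, 349 and 199.9 CPM in Pv. Only Pv batch 7 reached the ChC range, and with DESeq2's size factors the batches of Kcnh7 did not overlap. Kcnh1, of the ether-a-go-go type, was at 120 ± 78.4 CPM in ChC and 69.6 ± 106 CPM in Pv (SD, n = 4 batches each), where batch 6 alone held 227 CPM and the other Pv batches 1.08 to 38.5 CPM. The other 5 Kcnh members held between 3 and 125 UMI.

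The A-type pore subunits had higher means in ChC. Kcnd2 (chr6:21166109-21679805, mm9) was at 1561, 465, 989.9 and 1310.0 CPM in ChC and 394, 35.9, 253 and 528.5 CPM in Pv. The groups overlapped, since ChC batch 2 lay below Pv batch 8. The log2 fold change was 1.65 (SE 0.58, edgeR adjusted p of 0.673), and 1.22 without batch 6, the lowest Pv batch, with an unadjusted p of 0.0746; with any animal or batch left out it was between 1.22 and 2.25. Kcnd3 was at 284, 504, 154 and 262 CPM in ChC and 9.73, 0, 236 and 34.6 CPM in Pv, where batch 7 overlapped the ChC range. From the row with the most UMI alone, the batches of Kcnd3 did not overlap. With all animals, Kcnd3 had an adjusted p of 0.818 in edgeR. Kcnd3 was the one member called in any alternative, the edgeR fit without animal 4, the source of batches 7 and 8. That fit leaves out batch 7, the Pv batch that overlapped ChC. It also called the most genes of all alternatives, so the call is not particular to Kcnd3. This fit assumes that the lone Pv animal varies like the ChC animals.

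Of their accessory genes, Kcnip1 was at 288 ± 170 CPM in ChC and 290.4 ± 179 CPM in Pv (SD, n = 4 batches each). Kcnip4 was at 152, 114, 370.4 and 3909 CPM in ChC and 715, 566, 1125 and 574 CPM in Pv. Batch 4 stood far above the 7 others, and without it all Pv batches lay above the ChC batches. The 3387 UMI of Kcnip4 in batch 4 were spread over 15 of its 15 cells, with 22.6% in the cell that held most. Without the top cell of each batch, a setting added once the values were known, batch 4 was at 3970 CPM.

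Batch 4 also held the highest sums of oligodendrocyte and microglial markers and of markers of other interneurons, and an astrocyte sum below that of batch 7 alone, all given below; their part in the level of Kcnip4 was not tested.

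Kcnma1, the pore subunit of the large-conductance calcium-activated channel, was at 853, 166, 609 and 445.5 CPM in ChC and 1301, 162, 720.1 and 218 CPM in Pv, with wide overlap, and the batches of animal 3 were the highest and the lowest of the 8. Kcnmb2 (chr3:31801625-32099102, mm9), a beta subunit that inactivates the channel, was at 735, 605, 701 and 324 CPM in ChC and 414, 182, 147 and 276 CPM in Pv. Batch 4 of ChC lay below batch 5 of Pv. The log2 fold change was 1.25 (SE 0.57, edgeR adjusted p of 0.780), and 0.87 without batch 6; with any animal or batch left out it was between 0.87 and 1.575.

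Kcnmb4 (chr10:115854924-115910579, mm9), the neuronal beta4 subunit gene, was at 2.27, 1.68, 0 and 0.794 CPM in ChC and 12.2, 24.7, 9.63 and 33.5 CPM in Pv. All Pv batches were higher, though most of these values rest on few molecules. Like Kcns1, Kcnmb4 passed the filter through Pv alone and had to differ, so its ratio and fold change are a description. There were 3 UMI in ChC and 51 in Pv, a ratio of 40.8 for Pv over ChC in CPM (95% exact binomial interval 13.2 to 204, counting error only; 18.9 without batch 3, which held no UMI of it, and 16.9 from the means of the batch levels), with an edgeR adjusted p of 0.702. The fitted log2 fold change was -4.53, and -4.355 without batch 6; with any animal or batch left out it was between -6.17 and -3.50. Its span contains 1700058G18Rik on the opposite strand, with 8 UMI. A UMI was found in 3 of 63 ChC and 27 of 63 Pv cells before thinning, and after it in 0% of ChC and 16.4% of Pv cells (11.5 and 20.7% by animal).

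**Figure D3:**
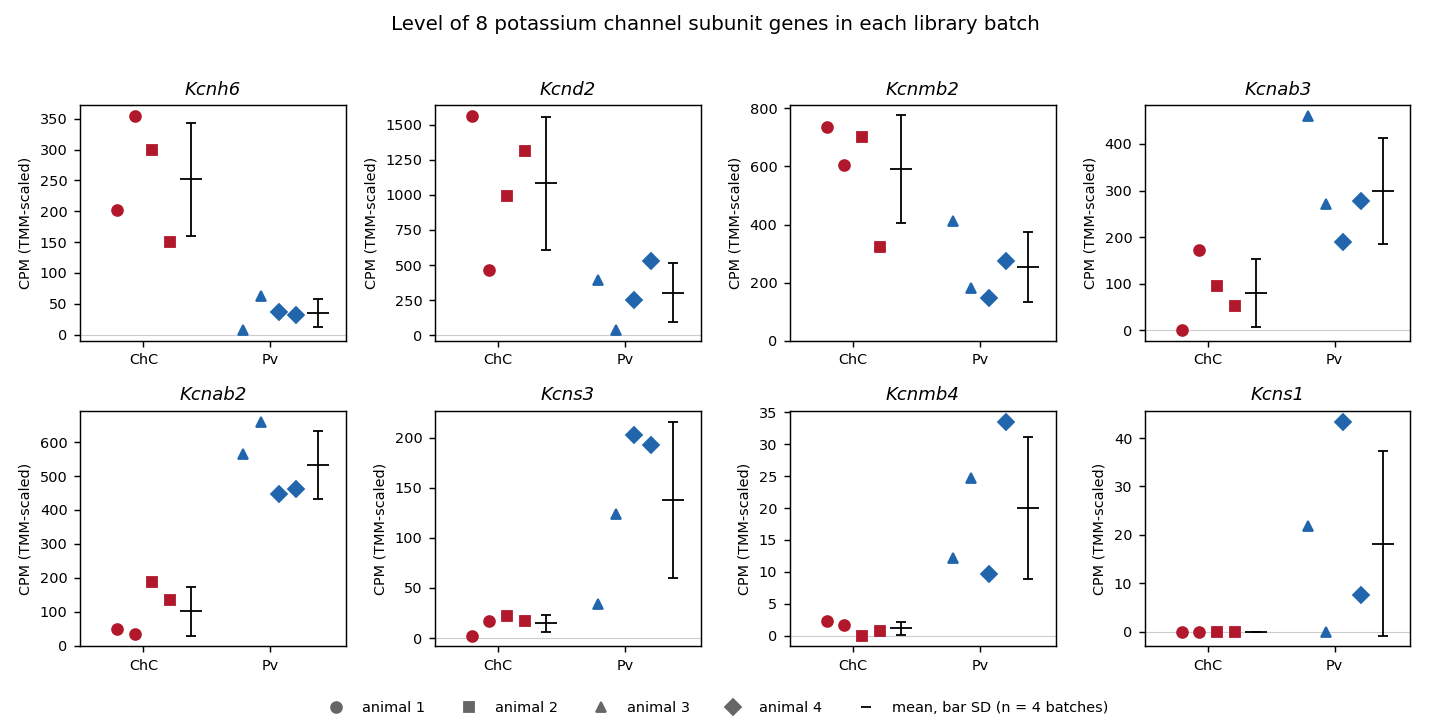
Level in CPM (TMM-scaled) of 8 potassium channel genes in each of the 4 ChC and 4 Pv library batches, with marker shape giving the animal and the black bar the mean ± SD of the 4 batches. All ChC batches lie above all Pv batches for Kcnh6 and below them for Kcnab2, Kcnab3, Kcns3 and Kcnmb4, and they overlap for Kcnd2, Kcnmb2 and Kcns1.

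The inward rectifiers and leak channels gave fewer molecules. Kcnj6, a subunit of G protein-gated inward rectifiers, was at 125, 82.3, 264.5 and 388 CPM in ChC and 70.5, 40.4, 135 and 6.48 CPM in Pv. Kcnj3, another subunit of these channels, was at 113, 80.6, 8.42 and 83.4 CPM in ChC and 173, 15.7, 21.7 and 22.7 CPM in Pv. Both overlapped between the types. Among 12 Kcnj members 6 were tested, of which 4 had fitted values higher in ChC and 2 in Pv, none at an unadjusted p under 0.05 in edgeR. Kcnk1, the leak channel gene with the most UMI, was at 15.4 ± 17.4 CPM in ChC and 44.3 ± 20.8 CPM in Pv (SD, n = 4 batches each). Of 9 Kcnk members 5 were tested, 2 with fitted values higher in ChC and 3 in Pv, and none reached an unadjusted p under 0.05.

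The sodium-activated channel gene Kcnt1 varied between batches of the same animal. It was at 619, 33.6, 56.1 and 11.1 CPM in ChC and at 19.5, 604, 323 and 55.1 CPM in Pv. High batches occurred in both types, and each animal with a high batch also had a low one. Kcnn2, a small-conductance channel gene, was at 20.5 ± 18.6 CPM in ChC and 17.4 ± 19.5 CPM in Pv (SD, n = 4 batches each), and Kcnrg was at 0.900 ± 1.33 and 0.608 ± 1.22 CPM. When each cell weighed the same, Kcnn2 was at 39.8 CPM in ChC and 22.5 CPM in Pv. Kcnn held 197 UMI over 4 members, of which 1 was tested.

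Genes whose products assemble with these channels, but whose names do not start with Kcn, were examined as a list of 14 genes. The list holds Dpp6 and Dpp10, Amigo1, Vapa and Vapb, Abcc8 and Abcc9, Lrrc26, Lrrc38, Lrrc52 and Lrrc55, Calm2 and Calm3, and Snx27. Of these, 12 had UMI (Lrrc52 and Lrrc55 had none) and 10 were tested, 0 of them with an adjusted p under 0.05 in edgeR. At an unadjusted p under 0.05, 1 of the 10 was higher in ChC, against 3.74% of all genes, and 0 in Pv, against 2.66%, and the median log2 fold change was -0.29 against 0.06 over all genes. The gene higher in ChC was Dpp6, a transmembrane partner of Kcnd channels, at 1162, 1997, 1716 and 475 CPM in ChC and 1002, 563, 1127 and 286 CPM in Pv, with overlapping batches. Its paralog Dpp10 was at 311 ± 257 CPM in ChC and 136 ± 44.1 CPM in Pv (SD, n = 4 batches each).

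Markers of other cells had lower sums than those of interneurons in every batch, by a narrower margin in batch 7, and differed between batches. The lists hold different genes, and counts appear to cover the whole span, so the margin between lists is not a measure of purity. Summed over Gad1, Gad2, Slc32a1, Lhx6, Erbb4, Sox6 and Pvalb, all with UMI, interneuron markers were at 8097, 10580, 8523 and 8047 CPM in ChC and 8935, 7365, 4241 and 6831 CPM in Pv. By mean over batches, Erbb4 was most abundant in ChC and Slc32a1 in Pv; a gene named below as most abundant had the highest mean in both types. The batch with the lowest sum was batch 7. Of 6 pyramidal markers 3 had UMI, with sums of 47.6, 495, 60.3 and 849.8 CPM in ChC and 516, 1030 and 1363 CPM in Pv batches 5 to 7 and 157 CPM in batch 8. Camk2a was most abundant, and Neurod6, Emx1 and Tbr1 were at 0. Of 6 astrocyte markers 5 had UMI, with sums of 59, 472, 314 and 963 CPM in ChC and 41.4, 15.7, 1127 and 207.5 CPM in Pv, Slc1a2 most abundant and Gfap at 0.

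Of 6 oligodendrocyte markers 4 had UMI, with sums of 11.3, 8.40, 98.6 and 161 CPM in ChC and 21.9, 137, 152 and 95.1 CPM in Pv, Mbp most abundant and Mag and Mobp at 0. Of 6 microglial markers 4 had UMI, with sums of 0, 1.68, 4.21 and 77.8 CPM in ChC and 0, 6.73, 12.0 and 1.08 CPM in Pv, P2ry12 most abundant and C1qa and Tmem119 at 0. Of 6 endothelial and mural markers 4 had UMI, with sums of 13.6, 16.8, 5.61 and 15.1 CPM in ChC and 4.87, 15.7, 93.9 and 116 CPM in Pv, with Flt1 highest by mean in ChC and Rgs5 in Pv, where batches 7 and 8 alone held Rgs5, and Cldn5 and Vtn at 0. Of the markers of other interneurons, Lamp5 is not among the gene names of the table used here and 4 of the 5 others had UMI. Their sums were 59, 133, 272 and 1111 CPM in ChC and 97.3, 501, 246 and 634 CPM in Pv, Cck most abundant and Vip at 0. The 4 Y-linked genes had UMI, with sums of 25, 25.2, 64.5 and 31.8 CPM in ChC and 41.4, 76.3, 40.9 and 20.5 CPM in Pv, Ddx3y most abundant. Batch 7 held the highest sums of pyramidal and astrocyte markers and was the Pv batch in which Kcnd3 and Kcnh7 were high. It was also the highest of all batches for Kcns3 and Kcns1 (43.4 CPM) and the highest Pv batch for Kcnip4 (1125 CPM). For Kcnab2, Kcnab3 and Kcnmb4 it was the lowest Pv batch. Batches 7 and 8, with the highest endothelial and mural sums, also held the most Kcns3 (202 and 192 CPM). The part of other cells in those levels was not tested.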

How the data were processed

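Reads primed at the poly(A) tail were aligned by the authors to mm9 (Bowtie 0.12.7) and collapsed by gene and tag, and the deposited values are these raw counts; annotation and strand use are not given in the sources used here. The table has 27207 transcript rows, 23335 gene names and 128 cells, 2 of them without a count. Rows of a gene name with identical counts were taken once and distinct rows summed; spread and detection used the row with the most UMI. Starts are printed 1-based.

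UMI summed per animal were compared with edgeR 4.0.16 in R 4.3.3 (quasi-likelihood, TMM, filterByExpr, Benjamini-Hochberg, threshold 0.05), tested on simulated counts. An exact two-sided permutation of 2 animals against 2 cannot go below p = 0.333. DESeq2 1.42.0, no filter, batches as samples, the top row, thinned cells and left-out animals or batches were alternatives. Levels are CPM scaled by TMM, over 4 batches. Python 3.11.15 with numpy 2.4.6, pandas 2.3.3 and scipy 1.17.1 served for the rest; thinning used seed 7.

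Members named reached 40% of thinned cells of a type, had 1 of the 3 lowest p in a direction, had batches without overlap, or had the most UMI of a subfamily; other names follow from counts of 5 or fewer or from left-out batches and were chosen after their values were seen. Members and lists were chosen with earlier results of these data known. A motif search of proteins was not run. A member that met these rules and a gene of the partner list are not reported here.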

Additional observations from a re-analysis of the deposited data

Results flagged for a closer look

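In 7 of 56 groups of 4 batches examined, over the named members and the label checks, one batch lay far from the others (its gap to the nearest over the range was above the 95% critical value of Dixon's test for 4 values); chance gives about 1 in 20 for normal values, which these sparse and skewed levels need not follow, so the count is not set against it. Kcnip4 was at 3909 CPM in ChC batch 4, against 114 to 370.4 CPM in the other ChC batches. Kcnt1 was at 619 CPM in ChC batch 1, against 11.1 to 56.1 CPM, and Kcnk1 at 41.4 CPM in ChC batch 3, against 4.54 to 8.40 CPM. In Pv batch 7, Kcnd3 was at 236 CPM, against 0 to 34.6 CPM. Kcnh1 was at 227 CPM in Pv batch 6, against 1.08 to 38.5 CPM. Kcnj3 was at 173 CPM in Pv batch 5, against 15.7 to 22.7 CPM, and Kcnrg at 2.43 CPM in the same batch, against 0 CPM, which is 1 UMI against none and is flagged whatever its size, a value below the limit that a count of 0 allows there (6.94 CPM).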

How the results depend on the processing

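Directions of the 8 genes with a fold change (Kcnh6, Kcnd2, Kcnmb2, Kcnab2, Kcnab3, Kcns1, Kcns3 and Kcnmb4) were the same in all 129 refits that gave a value, and none of them had an adjusted p under 0.05 in edgeR or DESeq2 in any; Kcns1 and Kcnmb4 were not tested in some. The 8 genes were chosen from the same data for a low p or for batches without overlap, and the refits reuse most of the counts. Their directions could thus hardly change, and the agreement is a description. Mean levels of the named members moved by more than the SD between batches in 3 of 220 cases, and the share of cells with a UMI lay outside its 95% Wilson interval in 48 of 88 cases with thinning to 5000 UMI or none.

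Counts moved more, and their causes were not tested. The settings also tested different sets of genes, so these counts are not shares of 1 set. The main fit tested 9741 genes, and the fit with no filter tested every gene name with a count. With batches as samples and with thinned cells, Kcns1 and Kcnmb4 were not tested and could not be counted among the members. Genes called at an adjusted p under 0.05 numbered 0 in edgeR, 156 with DESeq2, 86 with no filter and 6 with batches as samples, and 0 to 164 with an animal or batch left out, most without animal 4; members called were 0 to 1. Genes higher in ChC at an unadjusted p under 0.05 numbered 364, but 814 with no filter and 233 with thinned cells, and 279 to 895 with an animal or batch left out. Members among them were 2, but 5 with DESeq2 (507 of all genes) and 1 to 4 with a unit left out. Genes higher in Pv numbered 259, but 435 with DESeq2, 643 with no filter, 166 with batches as samples and 170 with thinned cells, and 180 to 582 with a unit left out. Members among them were 5, but 2 with batches as samples and 3 with thinned cells, and 1 to 5 with a unit left out.

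Genes with all ChC batches higher numbered 256 (2.63%), but 247 (2.54%) with DESeq2 size factors and 270 (2.77%) with the row with the most UMI. With a batch left out they numbered 360 to 542. Members among them were 1, but 2 with DESeq2 size factors or the row with the most UMI, and 1 to 6 with a batch left out. Genes with all Pv batches higher numbered 158 (1.62%), but 171 (1.76%) with the mean over cells, and 245 to 349 with a batch left out. Members among them were 4, but 3 with the mean over cells, and 4 to 7 with a batch left out. With fewer batches, groups separate more often. Where an animal is left out, the lone animal is assumed to vary like the others. No pairing or block was used: each cell type had its own flow cell, so the lane numbers 1 and 2 found in both are different lanes, and within a type the lane goes with the animal.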
